A study of Mus musculus with 8 samples.

Results

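The genes described here are 10 markers and regulators of neural stem cells and of glia: Sox2, Sox9, Olig1, Olig2, Nes, Gfap, Nfia, Nfib, Pdgfra and Slc1a3. For each of them, every region of open chromatin within 10 kb of the RefSeq gene body was taken from 8 peak lists of an ATAC-seq experiment, an assay in which a transposase cuts accessible DNA. Peaks of the 8 lists were joined where they overlapped, which gave 40784 regions in all, and 38 of them lay near the 10 genes.

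The cells were BV2, an established mouse microglial line, kept for 16 h either in monoculture or seeded on GL261, an established mouse glioma line, at 1 BV2 cell to 2 GL261 cells, and either at 21% oxygen (normoxia) or below 0.1% (hypoxia). There were 2 biological replicates in each of the 4 groups: monoculture normoxia, monoculture hypoxia, co-culture normoxia and co-culture hypoxia. Both are cell lines and stand for neither microglia nor tumour in an animal. Per the labels' protocols, cells were fixed with 1% formaldehyde inside the hypoxia chamber and sorted on CD45 or on GFP before transposition. The labels do not say which gate was used for which library, or whether normoxic cells were fixed likewise.

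These genes mark the step from neural stem cell to glia. Sox2 and Sox9 encode SRY-box transcription factors that keep neural progenitors undifferentiated and start gliogenesis, Olig1 and Olig2 encode basic helix-loop-helix factors of the oligodendrocyte lineage, and Nfia and Nfib encode nuclear factor I proteins that switch progenitors to glial fate. Nes (nestin) and Gfap encode intermediate filaments of stem cells and astrocytes, Pdgfra encodes the growth factor receptor of oligodendrocyte precursors, and Slc1a3 encodes the glutamate transporter GLAST of radial glia and astrocytes. Microglia come from the myeloid lineage and do not pass through this programme, whereas many gliomas express parts of it.

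Of the 10 genes, 5 had peaks in co-culture lists and in no monoculture list: Sox2, Olig1, Nes, Gfap and Pdgfra. Among all 21887 protein-coding genes that pattern was found for 6.92%, and the opposite pattern, peaks in monoculture lists alone, for 1.33% of coding genes and for 0 of the 10. Nfia and Slc1a3 had peaks in both cultures. Sox9, Olig2 and Nfib had no peak within 10 kb in any library, and the Nfib window spanned 236.6 kb. In all, 7 of the 10 genes had a peak in some library, as did 69.5% of coding genes. In lists cut to the 9910 strongest peaks each, the length of the shortest list, none of the 5 genes kept a peak, so the pattern rests on peaks of low rank. A gene without a peak is one at which no peak passed the authors' threshold at that depth, which does not show that its chromatin was closed. In a library made from many cells, an open site in few cells and a weakly open site in many cannot be told apart.

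The start sites of Sox2 and Nes were open in co-culture lists, and their promoter sequences are shown beside those of Olig2 and Gfap, whose start sites had no peak in any list. RefSeq promoter windows (GRCm38.p6), from 250 bp before to 50 bp after the start, were found for 7 of the 10 genes, and Sox9, Olig1 and Nfib were not among them. The windows lie at chr3:34649745-34650044 on the plus strand for Sox2, chr3:87970843-87971142 on the plus strand for Nes, chr16:91225300-91225599 on the plus strand for Olig2 and chr11:102897151-102897450 on the minus strand for Gfap. Each is written 5′ to 3′ along the gene, and capitals mark every CG dinucleotide.
Sox2: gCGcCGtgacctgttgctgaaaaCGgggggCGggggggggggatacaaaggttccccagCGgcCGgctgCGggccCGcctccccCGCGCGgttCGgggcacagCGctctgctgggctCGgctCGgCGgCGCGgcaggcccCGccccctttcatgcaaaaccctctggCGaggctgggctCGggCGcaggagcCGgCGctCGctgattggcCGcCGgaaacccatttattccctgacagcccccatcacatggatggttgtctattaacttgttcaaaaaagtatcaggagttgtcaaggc
Nes: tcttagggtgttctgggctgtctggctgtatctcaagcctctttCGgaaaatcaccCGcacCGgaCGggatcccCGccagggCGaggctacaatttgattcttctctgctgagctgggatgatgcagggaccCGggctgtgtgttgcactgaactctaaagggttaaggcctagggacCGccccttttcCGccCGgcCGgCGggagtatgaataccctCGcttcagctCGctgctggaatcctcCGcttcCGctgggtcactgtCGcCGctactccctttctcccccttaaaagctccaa
Olig2: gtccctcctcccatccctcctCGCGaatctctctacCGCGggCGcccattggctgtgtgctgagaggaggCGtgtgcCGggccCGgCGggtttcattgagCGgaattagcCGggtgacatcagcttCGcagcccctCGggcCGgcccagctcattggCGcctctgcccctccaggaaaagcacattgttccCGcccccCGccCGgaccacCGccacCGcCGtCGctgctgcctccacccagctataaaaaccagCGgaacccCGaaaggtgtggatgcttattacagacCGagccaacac
Gfap: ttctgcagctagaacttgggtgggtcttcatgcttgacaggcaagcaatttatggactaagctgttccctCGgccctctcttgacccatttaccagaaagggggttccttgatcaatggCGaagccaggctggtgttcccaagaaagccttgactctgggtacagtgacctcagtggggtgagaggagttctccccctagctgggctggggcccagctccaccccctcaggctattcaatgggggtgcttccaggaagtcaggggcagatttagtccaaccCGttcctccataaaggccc

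The windows of Sox2, Olig2 and Nes held 27, 25 and 18 CG dinucleotides and that of Gfap held 3, against a median of 7 over 32851 promoter windows. The windows of Nfia, Pdgfra and Slc1a3 held 2, 5 and 3. CG-rich promoters are commonly open in many cell types. Of the 9764 windows with at least 18 CG, the number in the Nes window, 73.6% had a peak in at least 1 library and 27.2% in all 8, so the CG-rich Olig2 start site was among the 26.4% with none. Of windows with fewer CG, 18.3% had a peak in any library.

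Peaks in co-culture lists alone, the pattern of the Sox2 and Nes start sites, were found at 6.33% of all promoter windows. Among the 9764 windows with at least 18 CG, as both of these have, the share was 12.3%. The Sox2 start site had a peak in co-culture normoxia replicate 1 and in both co-culture hypoxia replicates, and the Nes start site in replicate 1 of each co-culture group. A SOX core (ACAANG or its complement CNTTGT) was found 1 time in the Sox2 window, starting at base 45 from its 5′ end, and 1 time in that of Olig2, and not in those of Nes or Gfap, against 41.2% of all windows with at least 1. The core of a nuclear factor I site (TTGGC or GCCAA) occurred 1 time in the Sox2 window, 3 times in that of Olig2 and not in those of Nes or Gfap, and 46.7% of all windows had it. The core of the hypoxia response element (ACGTG or GCGTG, on either strand) was absent from the windows of Sox2, Nes and Gfap and present in that of Olig2, against 43.8% of all windows. These are matches of letters only.

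Among the stem cell genes, the region at the Sox2 start (chromosome 3, 34649340 to 34650124, overlapping the start of the gene and the long non-coding RNA gene Sox2ot) is described by percentiles. A percentile here is the rank of a region's best peak by the deposited −log10 p within its own list, from 0 (weakest) to 100 (strongest). It was 22.7 in co-culture normoxia replicate 1, 47.3 in co-culture hypoxia replicate 1 and 38.5 in co-culture hypoxia replicate 2. The other 5 libraries had no peak there, among them co-culture normoxia replicate 2. The 3 peaks rested on 14, 27 and 20 fragments at the summit, a number solved from the deposited fold and p-value of each peak. Beyond the 10 kb limit, a region 11838 bp from Sox2 and inside Sox2ot had peaks in both co-culture hypoxia libraries (percentiles 54.1 and 60.7) and in no other.

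Nes had 3 regions, all with peaks in co-culture lists alone. The region at its start (chromosome 3, 87970251 to 87971348) ranked at percentile 15.8 in co-culture normoxia replicate 1 and 8.89 in co-culture hypoxia replicate 1. Below the gene, a region from 87960747 to 87961163 ranked at 46.6 in co-culture normoxia replicate 1, 53.02 in co-culture hypoxia replicate 1 and 41.6 in co-culture hypoxia replicate 2. It lay 9930 bp from Nes, just inside the limit, and nearer to Crabp2, at 7375 bp. Above the gene, a region from 87982578 to 87983326 ranked at 13.6 in co-culture normoxia replicate 1 and 40.96 in co-culture hypoxia replicate 1, 2127 bp from Nes and 4205 bp from Bcan, which encodes the brain matrix protein brevican. Co-culture normoxia replicate 2 had none of the 3 regions.

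In the oligodendrocyte lineage, Olig1 had 1 region (chromosome 16, 91262894 to 91263760), 6009 bp below the lower-coordinate end of the gene and 34217 bp from Olig2. It ranked at percentile 34.4 in co-culture normoxia replicate 1 and 12.4 in co-culture hypoxia replicate 1. Sox2, Olig1 and Nes thus shared their libraries: all 5 of their regions had a peak in replicate 1 of both co-culture groups. Pdgfra had 1 region inside the gene (chromosome 5, 75155846 to 75156420), centred 3.88 kb after its start. Its percentiles were 31.8 in co-culture normoxia replicate 2 and 19.3 and 12.7 in the co-culture hypoxia replicates, and co-culture normoxia replicate 1 had no peak there.

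Among the astrocyte genes, Gfap had 3 regions, each with peaks in co-culture lists alone. The only one within the gene (chromosome 11, 102894706 to 102895002), 2.35 kb after the start, had a peak in co-culture hypoxia replicate 1 alone, at percentile 28.6. A region at 102880902 to 102881380 ranked at 16.5 in co-culture normoxia replicate 2 and 22.4 in co-culture hypoxia replicate 2, and one at 102883412 to 102883747 ranked at 20.04 in co-culture hypoxia replicate 1. They lie 5956 and 3589 bp from Gfap. The first overlaps the neighbouring genes Eftud2 and Ccdc103, and the second overlaps Ccdc103.

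Slc1a3 had 5 regions on chromosome 15, and their peaks fell in different cultures. A region inside the gene (8663681 to 8664176), 46.9 kb after the start, ranked at 21.8 and 33.7 in the monoculture normoxia replicates and 36.4 in monoculture hypoxia replicate 2, with no peak in any co-culture list. The next region (8659555 to 8660549), 50.8 kb after the start, showed the reverse, with percentiles of 46.4 and 56.4 in the co-culture normoxia replicates, 28.6 in co-culture hypoxia replicate 2 and no monoculture peak. A region below the gene (8627059 to 8627508) ranked at 44.1 and 51.5 in the co-culture normoxia replicates and 43.7 in co-culture hypoxia replicate 1. It also had a peak at 30.7 in monoculture hypoxia replicate 2. Near the start, the region from 8709816 to 8710633 had peaks in co-culture normoxia replicate 2 (18.1) and co-culture hypoxia replicate 1 (9.79). Upstream of the gene, the region from 8716892 to 8717527 had peaks at 23.9 and 34.8 in the co-culture normoxia replicates and at 4.002 in co-culture hypoxia replicate 1.

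**Figure D1:**
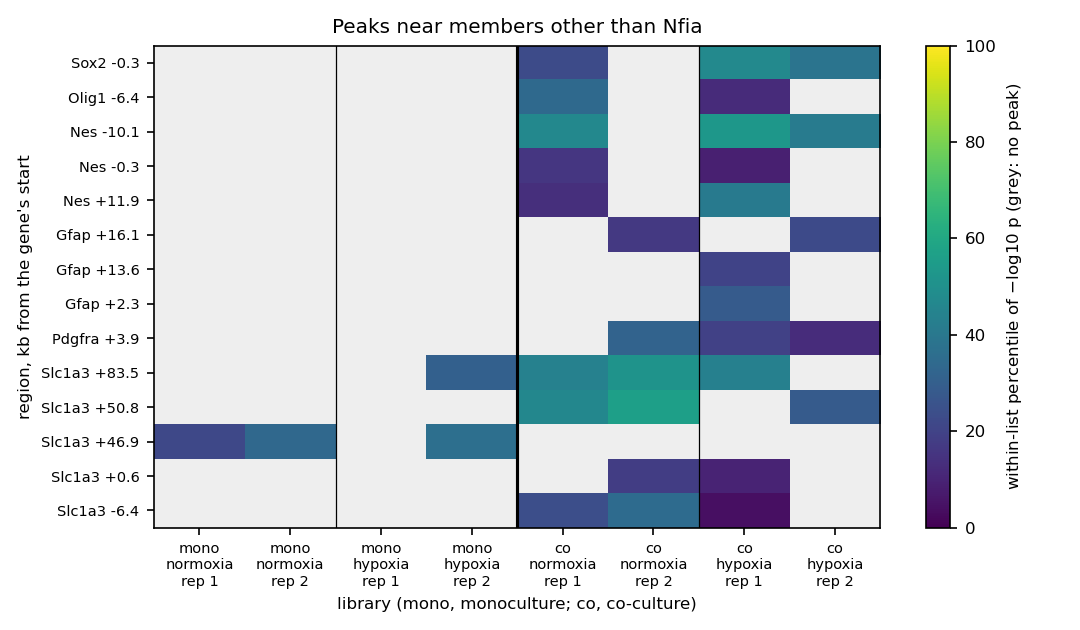
Within-list percentile of the best peak at the 14 regions near members other than Nfia (rows, labelled with the distance in kb of the region's centre from the RefSeq start, or for Olig1 from the lower-coordinate end) in each of the 8 libraries (columns), with grey for no peak. Right of the thick line, the co-culture libraries hold between 5 and 11 of the 14 regions, and the monoculture libraries hold between 0 and 2.

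Over all 38 member regions, 15 (39.5%) had peaks in co-culture lists alone and 8 (21.1%) in monoculture lists alone, both shares above those of all regions (25.4% and 13.6%). Over the 14 regions, counted without Nfia after its values had been seen, 12 (85.7%) had peaks in co-culture lists alone, 1 in monoculture lists alone and 1 in both. By library, 1 and 1 of the 14 had a peak in monoculture normoxia, 0 and 2 in monoculture hypoxia, 8 and 6 in co-culture normoxia and 11 and 5 in co-culture hypoxia. Every co-culture library had more of these 14 than every monoculture library. Over all 38 regions the cultures overlapped, with 10 and 7 in monoculture normoxia, 15 and 19 in monoculture hypoxia, 18 and 14 in co-culture normoxia and 27 and 17 in co-culture hypoxia. The same libraries held 30.8% and 23.1% of all regions in monoculture normoxia, 57.3% and 62.3% in monoculture hypoxia, 51.7% and 51.5% in co-culture normoxia and 70.7% and 51.5% in co-culture hypoxia. Leaving out each library in turn gave between 10 and 13 such regions. With a 2 kb limit in place of 10 kb, 6 of 7 regions had peaks in co-culture lists alone, and in the lists of 9910 peaks 1 of 2 did.

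The 27 peaks behind the 12 regions were weak ones. Their median percentile was 23.9 (from 4.002 to 56.4) and they rested on 11 to 36 fragments, with a median of 18. At all regions with peaks in co-culture lists alone, the median percentile was 23.7 and the median fragment number 17. The 12 regions thus ranked like other regions of that pattern. Counting only regions seen in at least 3 libraries, 6 of the 38 regions had peaks in co-culture lists alone, against 4.39% of all regions: 1 each at Sox2, Nes, Pdgfra and Nfia and 2 at Slc1a3.

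**Figure D2:**
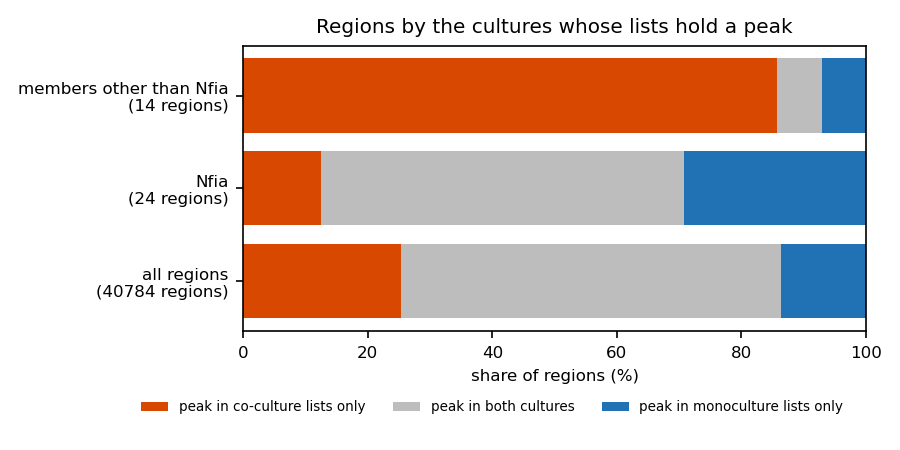
Share of regions (percent, horizontal axis) with peaks in co-culture lists only, in both cultures, or in monoculture lists only, for the 14 regions of members other than Nfia, the 24 regions of Nfia and all 40784 regions. Co-culture lists alone account for 85.7%, 12.5% and 25.4%.

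Nfia differed from the other members. This gene on chromosome 4 (97578066 to 98118876, 24 regions in a window of 560.8 kb) had peaks in every library: 9 and 6 regions in monoculture normoxia, 15 and 17 in monoculture hypoxia, 10 and 8 in co-culture normoxia and 16 and 12 in co-culture hypoxia. All of its regions lay inside the gene, and the nearest was 113416 bp from the promoter window in the RefSeq table. Of the 24, 21 had a peak in at least 1 monoculture library, where no glioma cells were grown, and 3 (12.5%) had peaks in co-culture lists alone. Another 7 had peaks in monoculture lists alone. The 4 regions with a peak in all 8 lists were all in Nfia, 4 of the 38 member regions against 15.6% of all regions. In the lists of 9910 peaks this held for 2 of them, 97751060 to 97752509 and 97771864 to 97772752.

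The strongest Nfia region (97771864 to 97772752, 190.4 kb after the start) ranked at 96.2 and 93.8 in monoculture normoxia, 98.8 and 98.6 in monoculture hypoxia, 93.05 and 97.5 in co-culture normoxia and 94.1 and 91.1 in co-culture hypoxia. Between 69 and 180 fragments covered its summits. The next, at 97751060 to 97752509, ranked between 79.3 and 97.3. A further 4 regions had peaks in 7 libraries. Peaks missing from 1 list were those of monoculture normoxia replicate 2 (97860762 to 97861272 and 97986160 to 97986957) and of co-culture normoxia replicate 2 (97814295 to 97815345 and 97844851 to 97845492). These 7-library regions had percentiles from 40.6 to 96.3.

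**Figure D3:**
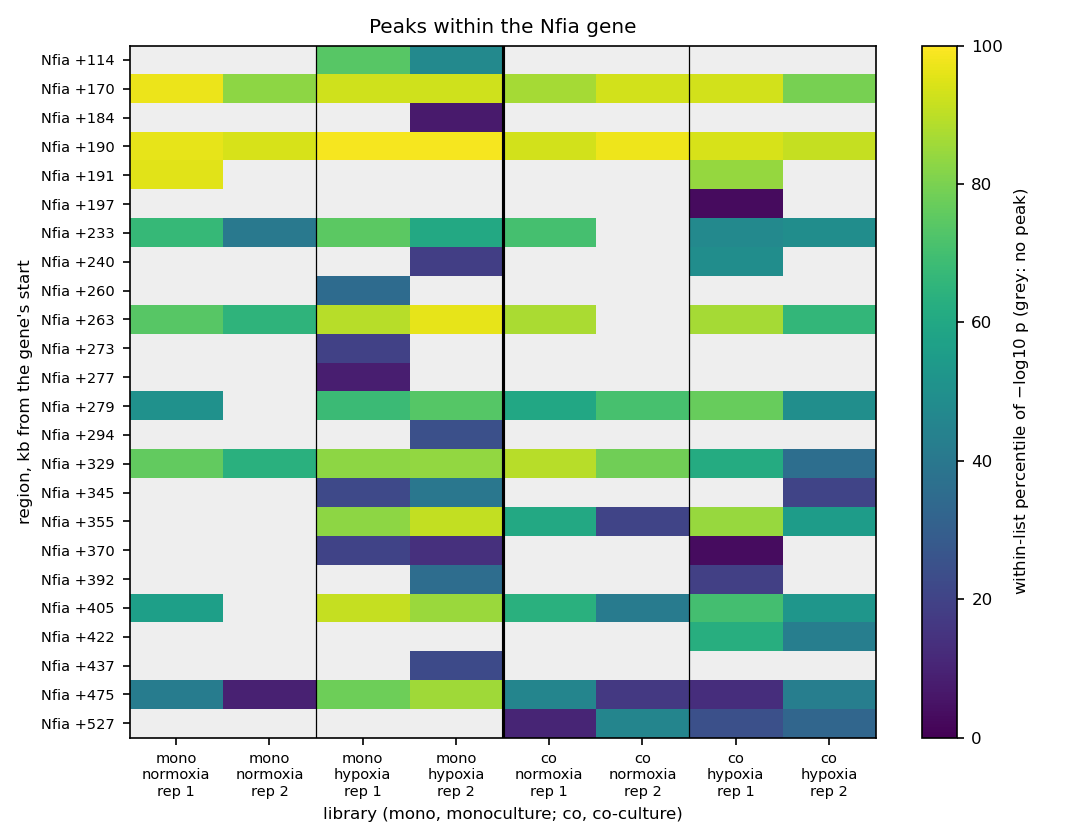
Within-list percentile of the best peak at the 24 Nfia regions (rows, labelled with the distance in kb of the region's centre from the RefSeq start) in each of the 8 libraries (columns), with grey for no peak. The regions at 170 and 190 kb are near the top of every list, with percentiles of 79.3 to 98.8, and many weaker regions appear in the monoculture hypoxia columns.

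The first comparison asks which regions appeared with low oxygen. A region is called gained where the first-named condition had a peak in each of its libraries and the other had none, and lost in the reverse case. With hypoxia in monoculture, 4 of the 38 regions (10.5%) were gained, all in Nfia, and 0 lost, against 17.7% and 0.179% of all regions. They lay at 97695408 to 97695793 (percentiles 73.8 and 47.2 in the hypoxic replicates), 97936115 to 97936820 (82.9 and 90.7), 97926878 to 97927516 (22.1 and 39.8) and 97952013 to 97952596 (20.05 and 13.7). The first of these had no peak in any other group, and the second was also present in each of the 4 co-culture lists. The share of members gained was below that of all regions. Without monoculture hypoxia replicate 1 the count was 10 and without replicate 2 it was 7, since leaving out a library loosens the rule.

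With hypoxia in co-culture, 1 region (2.63%) was gained, in Nfia (98003907 to 98004635, percentiles 62.7 and 42.8), and 0 lost, against 6.09% and 2.05% of all regions. Without co-culture hypoxia replicate 2 the count gained was 8, without co-culture normoxia replicate 1 it was 5, and without either other library of this comparison it was 2. Across both cultures, 0 member regions were present in each of the 4 hypoxic lists and absent from the normoxic ones (2.08% of all regions), and 0 showed the reverse (0.0196%). Without either co-culture hypoxia library the first count was 1. In a looser count, 15 of the 38 regions (39.5%) had peaks in hypoxic lists alone and 0 in normoxic lists alone, against 33.7% and 8.40% of all regions. Of those 15, 13 were Nfia regions and 2 were Gfap regions seen in 1 library. At Sox2, Olig1, Nes, Pdgfra and Slc1a3 every region had a peak at both oxygen levels.

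The next comparison asks which regions appeared beside glioma cells. With co-culture in normoxia, 5 of the 38 regions (13.2%) were gained and 1 lost, against 12.5% and 0.181% of all regions. Of the gained regions 3 were at Slc1a3 (those below the gene, 50.8 kb after the start and upstream) and 2 in Nfia (97936115 to 97936820 and 98108716 to 98109294). The lost region was the Slc1a3 region 46.9 kb after the start, seen in monoculture lists alone. In hypoxia, co-culture went with 5 gained regions (13.2%) and 1 lost, against 5.83% and 3.76%. The gained regions were the Sox2 start, the region 9930 bp below Nes, the Pdgfra region and 2 in Nfia (98003907 to 98004635 and 98108716 to 98109294). The lost region was in Nfia (97695408 to 97695793). Thus 1 region each of Sox2, Nes and Pdgfra was gained in the hypoxic comparison and 3 Slc1a3 regions in the normoxic one. Each of these regions also had a peak in 1 co-culture library at the other oxygen level. The split therefore rests on single libraries, and it was not tested.

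A single region, in Nfia (98108716 to 98109294), was present in each of the 4 co-culture lists and absent from monoculture, at percentiles of 10.2 and 45.7 in normoxia and 24.4 and 33.1 in hypoxia. It is 2.63% of the member regions, against 1.98% of all regions, and 0 member regions had the reverse pattern (0.027%). Leaving out 1 library raised the counts gained with co-culture. In normoxia the count was 10 without co-culture normoxia replicate 2 and 8 without co-culture normoxia replicate 1, and in hypoxia it was 14 without co-culture hypoxia replicate 2. Across both oxygen levels it was 3 without co-culture normoxia replicate 2 and 2 without any other co-culture library. Losses moved too. With co-culture in hypoxia 5 regions were lost without monoculture hypoxia replicate 1, 4 without monoculture hypoxia replicate 2 and 2 without either co-culture hypoxia library. In normoxia 3 were lost without co-culture normoxia replicate 1 and 2 without monoculture normoxia replicate 2. The lists of 9910 peaks held 13 of the 38 member regions. Of these 13, 0 were gained with co-culture at either oxygen level, against 4.93% of the 19558 regions of those lists in normoxia and 7.48% in hypoxia. There 1 was lost in normoxia and 2 in hypoxia, against 2.98% and 7.10%. All were in Nfia: 98055799 to 98057206 was present in each of the 4 monoculture lists and absent from co-culture, and 97910108 to 97911213 was lost in hypoxia. The first of these patterns was found for 0.506% of the regions of those lists.

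Ranks could be compared only at the 4 Nfia regions with a peak in every list. There, ranks were taken among the 6375 regions shared by all 8 lists, so that the ranked set was the same in each library, and are given as percentiles of that set. At 98055799 to 98057206 the rank was 21.1 and 1.34 in monoculture normoxia, 46.3 and 58.7 in monoculture hypoxia, 9.34 and 0.604 in co-culture normoxia and 0.863 and 15.1 in co-culture hypoxia. Both monoculture hypoxia libraries ranked above the other 6. The mean over hypoxic libraries was 22.2 percentile points higher than over normoxic ones (two-sided exact permutation test within culture, p = 0.111; adjusted p = 0.313 over all 6375 regions). The mean over co-culture libraries was 25.4 points lower than over monoculture (monoculture mean 31.9, co-culture mean 6.48; exact permutation test within oxygen level, p = 0.111; adjusted p = 0.305).

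At 97910108 to 97911213 the ranks were 59.04 and 47.3 in monoculture normoxia, 54.7 and 54.6 in monoculture hypoxia, 68.1 and 43.6 in co-culture normoxia and 22.8 and 11.2 in co-culture hypoxia. Both co-culture hypoxia libraries lay below the other 6. The mean over hypoxic libraries was 35.8 and over normoxic ones 54.5 (exact permutation p = 0.222; adjusted p = 0.445). At the 2 strongest regions the mean rank was lower in co-culture than in monoculture, 81.7 against 93.3 at 97771864 to 97772752 and 67.9 against 80.6 at 97751060 to 97752509. Neither difference passed the test (exact permutation p = 0.111 and 0.222; adjusted p = 0.305 and 0.426). With 36 relabellings the smallest possible p is 0.0556, so no region could reach 0.05. At 0 of the 4 regions did the hypoxic and normoxic ranks, or the co-culture and monoculture ranks, lie fully apart. By culture this rests on single libraries: without monoculture normoxia replicate 2 the ranks lay apart at 3 of the 6 member regions then present in every list. Without co-culture normoxia replicate 1 they did at 1 of 4, and without co-culture normoxia replicate 2 at 1 of 6. Ranks lie apart more easily with 1 library fewer. Neither the direction nor the share over all regions was taken for these comparisons, so the counts are not read as a result about the members. With all 8 libraries, over all 6375 regions, ranks were all higher in hypoxia at 5.21% and all lower at 6.89%. They were all higher in co-culture at 5.62% and all lower at 6.46%.

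To set the members beside genes of related and other cells, 5 further lists were counted, and genes named from them for their peak pattern alone were chosen after their values were seen. Members with a peak numbered 2 and 2 of 10 in monoculture normoxia, 1 and 2 in monoculture hypoxia, 5 and 4 in co-culture normoxia and 7 and 6 in co-culture hypoxia. Of all coding genes, 57.5% and 58.4% had a peak in monoculture hypoxia and 59.02% and 59.9% in co-culture normoxia. Neither over all genes nor for the members did the counts of monoculture hypoxia and co-culture normoxia overlap. These 2 groups were close over all genes, and the gap was wider for the members. In the neural stem and progenitor list, 17 of 27 genes had a peak in some library, between 4 and 10 in monoculture lists and between 12 and 14 in co-culture lists, and 6 in co-culture lists alone. Among them were Sox6, Sox21, Pax6 and Gli3, transcription factors of neural development. Pax6 (chromosome 2, 105675025 to 105675726, percentiles 33.2 to 70.3) and Sox6 each had at least 1 region present in each of the 4 co-culture lists and absent from monoculture.

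In the oligodendrocyte list, 10 of 14 genes had a peak, from 1 to 5 in monoculture lists and from 5 to 9 in co-culture lists. Sox10, Zfp488, Mog and Cnp, genes of the myelinating lineage, had theirs in co-culture lists alone. A region of Cldn11, a myelin tight junction gene (chromosome 3, 31166070 to 31166925, percentiles 52.5 to 72.9), was present in each co-culture list and absent from monoculture. None of the 14 astrocyte genes had peaks in co-culture lists alone. There 9 had a peak somewhere, from 2 to 9 in monoculture and from 7 to 9 in co-culture, and Aqp4, the water channel of astrocyte endfeet, Gjb6, Mlc1, Ntsr2 and Fgfr3 had none.

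Markers of glioma and neural matrix cells had peaks more often in co-culture, as did all coding genes and each other list by its mean count. Of 18 such genes 14 had a peak, from 3 to 9 in monoculture lists (mean 6.0) and from 8 to 12 in co-culture lists (mean 9.75). In the lists of 9910 peaks the counts were 5 and 3 in monoculture normoxia, 4 and 5 in monoculture hypoxia, 6 and 4 in co-culture normoxia and 5 and 4 in co-culture hypoxia, and for the members they were 1 or 2 in every library. The neural stem list then had 2 to 5 genes with a peak in monoculture lists and 5 to 7 in co-culture lists, and all coding genes 7015 to 7871 and 8478 to 9503. Ncan, Bcan, Col1a1, Col6a1 and Cdh2 had peaks in co-culture lists alone, and the Nes region nearest Bcan is counted for both genes. Tnc and Yap1 had them in monoculture lists alone, and Ptprz1, Cspg5, Fabp7 and Col1a2 had none. Counted by region, these 18 genes had 8 and 3 regions with a peak in monoculture normoxia, 15 and 18 in monoculture hypoxia, 20 and 15 in co-culture normoxia and 35 and 20 in co-culture hypoxia. Of their 43 regions, 55.8% had peaks in co-culture lists alone, against 25.4% of all regions. The same share was 53.1% for the oligodendrocyte list, 44.1% for the neural stem list, 39.5% for the members, 26.7% for the astrocyte list and 13.2% for the microglia list. GL261 chromatin on its own was not analysed here. Whether glioma cells carried through the sort had a part in the members' peaks was not tested.

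Of 22 microglia and macrophage markers 20 had a peak, from 12 to 18 in monoculture lists (mean 15.5) and from 16 to 19 in co-culture lists (mean 18.25). None of them had peaks in co-culture lists alone. A peak in all 8 libraries was found for 10 of the 22, against 30.4% of coding genes and 1 of the 10 members. Ptprc, which encodes CD45, Csf1r, the receptor for the microglial growth factor CSF1, Cx3cr1, P2ry12 and Trem2 were among them. Itgam, which encodes CD11b, and Tmem119 had a peak in 3 libraries each, 1 of them monoculture, and C1qa and C1qb had none in any.

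By oxygen, some genes of these lists had regions present in each of the 4 hypoxic lists and absent from the normoxic ones. Of all regions 2.08% had this pattern, so it is not read as a trait of the genes named. The genes were Slc1a2, the astrocyte glutamate transporter GLT-1 (chromosome 2, 102713182 to 102713827, percentiles 38.5 to 80.5), the myelin gene Mbp, the hyaluronan receptor gene Cd44 and Ptprc (chromosome 1, 138158491 to 138159312, percentiles 65.8 to 78.5). By culture, Mbp, Cdh2 and Ncan had regions present in each co-culture list and absent from monoculture, besides those of Pax6, Sox6 and Cldn11. That pattern was found for 1.98% of all regions. Mbp thus had different regions of both kinds.

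**Figure D4:**
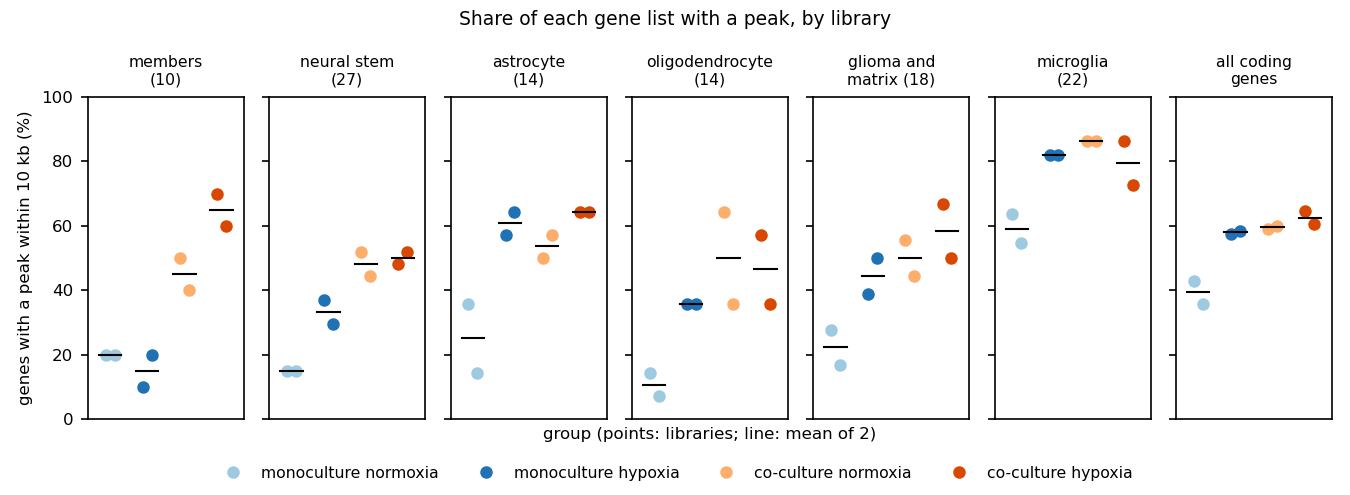
Percent of the genes of each list with a peak within 10 kb (vertical axis), with 1 point per library, a line at the mean of the 2 replicates and colours for the 4 groups. The members lie at 1 to 2 of 10 genes in monoculture and 4 to 7 of 10 in co-culture. All coding genes lie between 35.8% and 58.4% in monoculture and between 59.02% and 64.5% in co-culture.

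The libraries differed in length and depth. Lists held 9910 and 13333 peaks in monoculture normoxia and from 21633 to 29658 in the other 6 libraries, and the background was 0.76 to 1.45 fragments per position. It was 1.45 and 1.41 in monoculture hypoxia, higher than or close to the 1.07 to 1.42 of the co-culture libraries. The lists give no read totals, so no counting interval could be placed on presence or absence of a peak.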

How the data were processed

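Per the labels' protocols, fixed and sorted cells were treated with Tn5 and sequenced as read pairs of 151 bases. The submitters' processing notes name Trimmomatic 0.36, HISAT2 2.1.0, Picard, SAMtools, deepTools and MACS2, and the build mm10 (GRCm38). Peak-calling settings are not given in the sources used here. The authors deposited 1 peak list per library. Its fold (a ratio to that library's background), −log10 p, −log10 q, score and summit offset are the authors' own values and were used only within a list.

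Peaks of all lists were merged where they shared at least 1 bp. Genes came from RefSeq GRCm38.p6, widened by 10 kb. Summit fragments were solved from the deposited fold and −log10 p as (n + 1)/(b + 1) with a Poisson tail for n fragments over a background of b, and every peak with a −log10 p up to 250 was recovered with an error under 0.001. Rank differences used exact permutation tests over libraries, two-sided, Benjamini-Hochberg adjusted over all shared regions. The code was tested on simulated data. Members and lists were chosen with earlier results of these data known. By the naming rule, member regions at start sites, gained or lost, or highest ranked of a member are named, with list genes that have a region gained or lost over all 8 libraries. The other regions and genes named were chosen after their values were seen. Python 3.11.15, numpy 2.4.6, pandas 2.3.3, scipy 1.17.1 and matplotlib 3.10.9 were used.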

Additional observations from a re-analysis of the deposited data

How the results depend on the processing

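Summit windows moved none of the 20 counts recomputed under them by over 1.5 times (dropping peaks wider than 10 kb could move none, since 0 member peaks were that wide), ranking by fold neither of the 2 rank counts, and a stricter threshold (−log10 q of at least 5) or a 50% coverage rule moved only counts of lost regions. Lists of 9910 peaks moved most: gains with hypoxia were 1 in monoculture and 0 in co-culture, gains with co-culture 0 in normoxia, in hypoxia and across both, while losses with hypoxia in co-culture were 1 and losses with co-culture 1 in normoxia, 2 in hypoxia and 1 across both. Of all 19558 regions in these lists, hypoxia gained 7.48% in monoculture and 5.51% in co-culture and lost 5.79% in co-culture, and co-culture across both gained 1.03% and lost 0.506%. Regions in co-culture lists alone were then 1 (1 without Nfia) and members with that pattern 0. List genes with a peak were 2 members, 9 neural stem, 4 oligodendrocyte and 9 glioma genes. These lists hold fewer peaks by construction. A 2 kb limit gave 3 gains with co-culture in normoxia and 9 regions in co-culture lists alone (6 without Nfia), from smaller windows.

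Leaving out each library gave 4 to 10 gains with hypoxia in monoculture, 1 to 8 in co-culture and 0 to 1 in both, and 5 to 10, 5 to 14 and 1 to 3 gains with co-culture in normoxia, hypoxia and both. Losses were 0 to 1, 0 to 2 and 0 with hypoxia in monoculture, co-culture and both, and 1 to 3, 1 to 5 and 0 to 1 with co-culture. Ranks apart by culture ranged from 0 to 3 (3 without monoculture normoxia replicate 2). Regions in co-culture lists alone ranged from 12 to 18, and members with that pattern stayed at 5. The counts of co-culture lists alone and their alternatives were chosen after seeing the data. Comparing libraries with the same replicate number (replicate block), 1 Nfia region (98055799 to 98057206) ranked lower in co-culture in every pair and 0 differed by oxygen. Same-numbered libraries deviated together only between the co-culture groups (correlation 0.196 over regions) and not in the other 5 pairs of groups (-0.030 to 0.048), so the numbers were not taken to pair the libraries. All regions of Sox2, Olig1 and Nes had peaks in replicate 1 of both co-culture groups, so their peaks at the 2 oxygen levels may not be independent. Depth limits every absence of a peak. The lists were shortest in monoculture normoxia. Its replicate 2 had a background of 1.03, close to the 1.07 of co-culture normoxia replicate 1, with 9910 against 21790 peaks, so list length did not follow background alone.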
